A study of Brassica napus with 33 samples.

Results

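Roots of Brassica napus deprived of phosphorus (P) were compared directly with roots deprived of sulphur (S), without going through the control. The roots of both deprivations differed in the transporters of the missing ion: 12 of 26 P transporter genes were higher under P deprivation and 2 under S deprivation, while 21 of 38 S transporter genes were higher under S deprivation and 9 under P deprivation. Of all 56667 genes tested, 5.23% were higher under P and 6.13% under S deprivation. The comparison rests on the 3 libraries of each deprivation, 6 of the 33 libraries in the series. The libraries of each deprivation were identified by their labels. The P and S transporter groups were taken from the study's list of ion transport genes, which was restricted to genes called against the control in at least 1 deprivation of these same libraries. The numbers of their members that differ are therefore not independent evidence, and the shares of all genes given beside them include genes not selected for any change.

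All plants were wild type, of the cultivar Trezzor, and grew in hydroponics in a greenhouse. After 24 days on a complete solution they stayed on it (control) or received one without P or without S for 10 days. RNA came from roots, and each condition had 3 replicates, which the study's methods describe as pools of 2 plants where they define a replicate. Since the count files pair no gene identifier with a name, the labelled tissue could not be checked against marker genes, and genes are named here by identifier and by the annotation in the study's lists. In the identifiers, the letter A or C after Bna gives the subgenome, and Ann or Cnn marks a gene not placed on a chromosome.

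Plant roots take up phosphorus as phosphate and sulphur as sulphate, each through its own families of membrane transporters. Phosphate permeases of the root surface bring phosphate into the cell, and SPX-EXS proteins, of which PHO1 of Arabidopsis thaliana is the best known, export it towards the xylem. Sulphate enters Arabidopsis roots mainly through SULTR1.1 and SULTR1.2, high-affinity transporters, moves through vascular tissues with SULTR2.1 and SULTR2.2, and leaves the vacuole through SULTR4.1. Inside the plant it is activated by ATP sulfurylase, reduced and built into cysteine, methionine and glutathione, and a smaller part goes into sulfolipids, membrane lipids without phosphorus.

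The P libraries held from 12397557 to 13525366 read pairs counted on genes (median 13413511) and the S libraries from 10115284 to 15240992 (median 13941584). From 15.9 to 20.4% of the read pairs were unmapped in the P libraries and from 11.9 to 17.5% in the S libraries, and the part of this in the results was not tested. Across genes, Pearson's r of log2 CPM (counts scaled to library size and normalised for library composition) ran from 0.967 to 0.976 within P deprivation, from 0.939 to 0.968 within S deprivation and from 0.894 to 0.940 between them. The ranges touch because S replicate 2 was as close to P replicate 2 as to S replicate 1. In a principal component analysis of the 6 libraries, the first axis held 39.5% of the variance and had the P libraries at -66.7, -147 and -170 and the S libraries at 179, 60.1 and 145, so that the deprivations did not overlap on it. The second axis held 21.5% and set S replicate 2, at -187, furthest from the others.

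Of 56667 genes tested, 6433 (11.4%) passed a threshold of 0.05 on the Benjamini-Hochberg adjusted p between the deprivations (quasi-likelihood test of edgeR, adjusted over all genes tested). Of these, 2962 (5.23% of those tested) were higher under P deprivation and 3471 (6.13%) under S deprivation. With at least a 2-fold difference as well, 3364 (5.94%) were called, 1411 (2.49%) higher under P and 1953 (3.45%) under S deprivation. The 3 P and 3 S libraries did not overlap for 17981 genes (31.7%), of which 9492 (16.8%) were higher under P and 8489 (15%) under S deprivation. Lack of overlap was a condition for naming most of the genes below, so that for them it is no separate evidence. The median log2 fold change of all genes was 0.02, with P minus S deprivation giving the sign here and below. The number of genes called depended on single libraries: it was 3766 without P replicate 2, 3699 without P replicate 3, 3652 without S replicate 1 and 3719 without S replicate 3. Root RNA was measured in bulk, so that fewer cells of a type and less RNA per cell cannot be told apart.

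**Figure D1:**
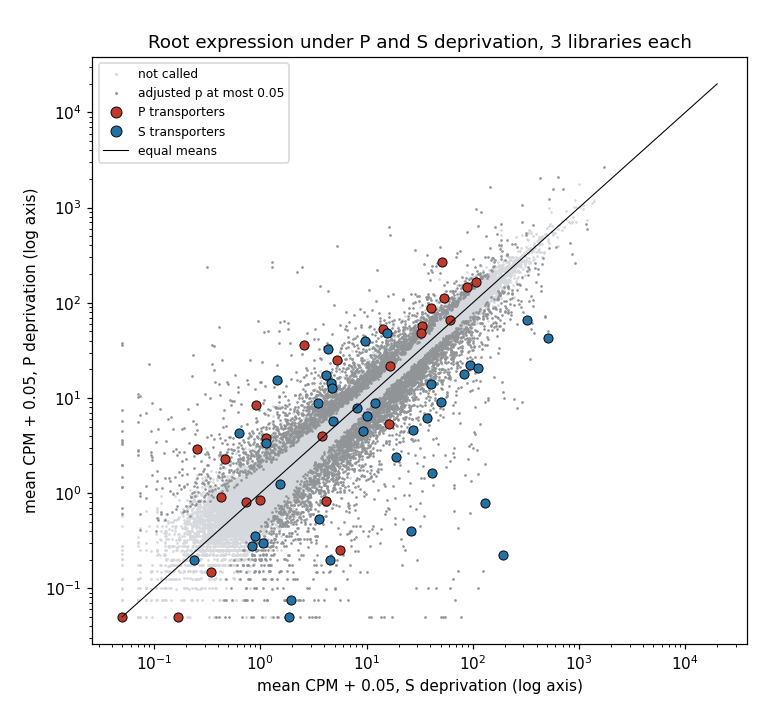
Each small point is 1 of the 56667 genes tested, with its mean CPM over the 3 S libraries (x axis) and over the 3 P libraries (y axis), both with 0.05 added and on log axes; large points are the 26 P and 38 S transporter genes. Most S transporters lie to the right of the line of equal means, with the SULTR1.1 genes BnaA02g10510D and BnaC02g14670D furthest from it, and most P transporters lie above it.

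The 26 P transporter genes comprised 11 phosphate permeases, 10 SPX-EXS proteins, 3 proteins of the major facilitator superfamily and 2 mitochondrial carriers, and all 26 passed the filter on low counts. Of these, 12 were higher under P deprivation, 2 were higher under S deprivation and 12 did not pass the test, against 5.23% and 6.13% of all genes, which unlike these were not selected for a change against the control. Their median log2 fold change was 0.67, against 0.02 for all genes. It was 0.76 over the 24 genes left when genes that exceeded 3 counts in no P or S library were set aside. Without P replicate 1 or without S replicate 1, 7 genes were higher under P deprivation, and in both cases the same count of 2 was higher under S deprivation. The CPM summed over the group were 1281, 1037 and 1025 in the P libraries and 557, 510 and 556 in the S libraries, a ratio of means of 2.06. The control libraries, at 630, 518 and 552, lay in the range of the S libraries or just above it.

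Among the phosphate permeases, 4 of 11 were higher under P deprivation and none was higher under S deprivation (5.23% and 6.13% of all genes). BnaA04g22280D stood at 25.7, 37.2 and 43.9 CPM in the P libraries and at 3.24, 1.89 and 2.44 CPM in the S libraries. The lowest P library was therefore well above the highest S library, and the log2 fold change was 3.79 (SE 0.40, edgeR adjusted p = 4.91e-06). BnaA05g06210D had 7.31, 9.29 and 8.61 CPM under P deprivation and 0.959, 0.696 and 0.906 CPM under S deprivation, also without overlap, with a log2 fold change of 3.26 (SE 0.49, edgeR adjusted p = 0.00021). Its neighbour in identifier, BnaA05g06230D, was at 24.4, 26.3 and 23.9 CPM against 6.65, 3.48 and 5.37 CPM. The P libraries of this gene were close together and far above the S libraries (log2 fold change 2.25, SE 0.29, edgeR adjusted p = 3.76e-05).

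BnaC04g46050D, a permease on the C subgenome, had 54.2, 52.3 and 51.9 CPM under P deprivation and 19.8, 8.45 and 14.1 CPM under S deprivation. All P libraries were again higher (log2 fold change 1.89, SE 0.27, edgeR adjusted p = 0.000125). Against the control, which the comparisons of both deprivations share, all 4 permeases were higher under P deprivation, with log2 fold changes from 2.28 to 3.63, and under S deprivation none of the 4 passed the test (-0.16 to 0.53). BnaA06g36740D and BnaCnng37050D were another case. They were higher than the control under P deprivation (1.5 and 0.88), but did not differ between P and S deprivation at the threshold (0.55, edgeR adjusted p = 0.218, and 0.11, edgeR adjusted p = 0.84). BnaA06g36740D was at 39.9, 35 and 67.9 CPM under P and 42.2, 21.3 and 33.8 CPM under S deprivation, with overlapping groups, and it was also higher than the control under S deprivation (log2 fold change 0.95). Another 3 permeases were lower than the control under P deprivation and did not pass the test between P and S deprivation: BnaA09g34510D (log2 fold change against the control -2.92), BnaC03g18410D (-3.77) and BnaA02g22250D, which had 0 counts in every P library. The permease BnaA03g18250D had 0 counts in all P, S and control libraries and passed the filter through other conditions of the fit.

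Of the SPX-EXS proteins, 5 of 10 were higher under P deprivation and none under S deprivation (5.23% and 6.13% of all genes). BnaA02g35630D had 3.54, 2.36 and 2.62 CPM in the P libraries against 0.300, 0.0995 and 0.209 CPM in the S libraries. Every P library was above every S library (log2 fold change 3.66, SE 0.48, edgeR adjusted p = 4.58e-05). BnaA07g24450D ran from 0.898 to 3.62 CPM under P and from 0.300 to 0.597 CPM under S deprivation (log2 fold change 2.47, SE 0.61, edgeR adjusted p = 0.0131). BnaC06g30370D was at 150, 97.2 and 89.97 CPM against 51.3, 46.9 and 63.4 CPM (log2 fold change 1.06, SE 0.31, edgeR adjusted p = 0.0331). Neither gene overlapped between the groups. The call of BnaA07g24450D was lost without P replicate 1 or S replicate 1 or 3 (edgeR adjusted p from 0.0651 to 0.0729), and that of BnaC06g30370D without P replicate 1 or 2 or any S replicate (0.0538 to 0.133). BnaC01g30800D and BnaA01g23840D were higher under P deprivation by less, with log2 fold changes of 0.72 and 0.61. The SPX-EXS calls rested on single libraries more than those of the permeases: 1 remained without P replicate 1 or without S replicate 1, 2 without S replicate 3, and 3 without P replicate 2 or S replicate 2, while the count of permeases was 4 each time.

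Both mitochondrial carriers, proteins that move metabolites across the inner mitochondrial membrane, were higher under P deprivation. BnaC09g43140D was at 89.5, 86.7 and 87.8 CPM against 43.4, 36.9 and 39.6 CPM, and the replicates differed far less than the groups (log2 fold change 1.14, SE 0.15, edgeR adjusted p = 4.84e-05). The control libraries were at 32.9, 39.4 and 40.2 CPM, close to S deprivation. BnaA06g19110D was at 4.08, 4.05 and 2.99 CPM under P and at 0.599, 1.29 and 1.32 CPM under S deprivation (log2 fold change 1.82, SE 0.53, edgeR adjusted p = 0.0308). Here the control (2.76, 4.80 and 6.30 CPM) was close to P deprivation and above S deprivation. This call was lost without any of P replicates 1, 2 and 3 or S replicates 1 and 3, with edgeR adjusted p from 0.0512 to 0.145.

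The 3 major facilitator proteins of the group parted in both directions. BnaC03g75450D was at 365, 227 and 212 CPM under P and 68.8, 29.4 and 55.6 CPM under S deprivation, so that the lowest P library was far above the highest S library (log2 fold change 2.38, SE 0.41, edgeR adjusted p = 0.000762). The other members were higher under S deprivation and were the exceptions in the P group. BnaC07g34420D was at 0.308, 0.221 and 0.0748 CPM under P and 5.57, 5.37 and 5.72 CPM under S deprivation (log2 fold change -4.73, SE 0.52, edgeR adjusted p = 6.65e-06). BnaC08g48150D was at 4.62, 4.87 and 6.14 CPM against 17.9, 14.9 and 16.3 CPM (log2 fold change -1.65, SE 0.17, edgeR adjusted p = 2.94e-06). Neither overlapped, and both were lower than the control under P deprivation (-4.02 and -1.89) without passing the test against it under S deprivation (0.71 and -0.23).

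**Figure D2:**
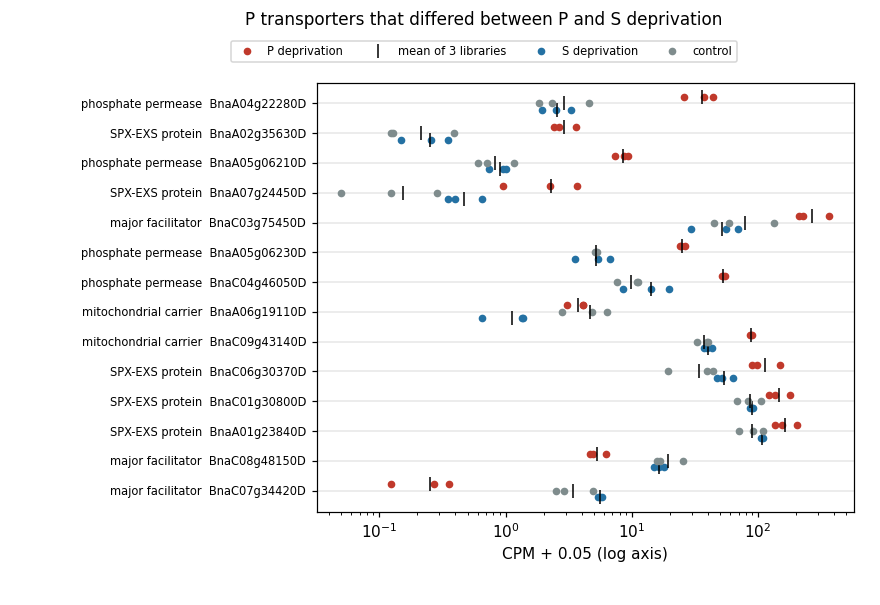
CPM with 0.05 added (x axis, log scale) of the 14 P transporter genes called between P and S deprivation, 1 row per gene with its annotation; red, blue and grey points are the 3 P, 3 S and 3 control libraries and the bars are their means. In the upper 12 rows the red points lie to the right of the blue ones, with control points mostly near the blue, and in the lower 2 rows the red points lie to the left.

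For the whole P group, 13 genes were higher and 5 lower than the control under P deprivation (15.1% and 14.3% of all genes), and 1 was higher and 1 lower under S deprivation (4.22% and 4.63% of all genes). Of the 12 genes higher under P than under S deprivation, the mean of the control lay below both deprivations for 9, between them for 2 and above both for 1. The log2 fold changes of the 10 genes that did not pass the test and had more than 3 counts in some library ran from -2.30 to 1.18. Of the 13 genes on each subgenome, 7 on A and 5 on C were higher under P deprivation, and the 2 higher under S deprivation were on C.

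The S transporter group was larger and parted the deprivations in both directions. Of its 38 genes, all of which passed the filter, 21 were higher under S deprivation, 9 were higher under P deprivation and 8 did not pass the test, against 6.13% and 5.23% of all genes, selected or not. All 30 called genes differed at least 2-fold. The median log2 fold change was -1.66, also with the gene at 0 counts under P deprivation placed at its bound, and the libraries did not overlap for 23 genes higher under S and 11 higher under P deprivation (15% and 16.8% of all genes). The CPM summed over the group were 494, 457 and 370 in the P libraries and 1857, 1604 and 1927 in the S libraries, a ratio of means of 4.08. The control, at 719, 421 and 583, overlapped with P deprivation and was well below S deprivation.

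SULTR numbers come from the study's table of S-related genes. It gave them only to genes higher than the control under S deprivation on these libraries, so the direction of the numbered genes is not independent evidence. The SULTR1.1 genes BnaA02g10510D and BnaC02g14670D had the largest differences in the group among genes with counts in both deprivations. BnaA02g10510D was at 0.0770, 0 and 0.449 CPM under P and at 191, 177 and 207 CPM under S deprivation. With at most a few counts in each P library, it was close to absent there and abundant in every S library (log2 fold change -10.02, SE 0.42, edgeR adjusted p = 1.64e-10). The second gene, BnaC02g14670D, was at 1.16, 0.442 and 0.599 CPM against 129, 122 and 143 CPM (log2 fold change -7.48, SE 0.33, edgeR adjusted p = 2.40e-10). The control libraries were between the deprivations for both genes, at 3.00, 2.57 and 2.52 CPM and at 4.03, 3.94 and 3.11 CPM. Both were lower than the control under P deprivation (-3.88 and -2.33) and higher under S deprivation (6.15 and 5.15). The third gene, BnaC07g18000D, had 0 counts in all P and all control libraries and 2.22, 1.49 and 1.74 CPM in the S libraries, at least 8.06-fold higher when P deprivation is set at 3 counts per library (edgeR adjusted p = 0.000199). Of P, S and control, only the S libraries could carry this gene through the filter on low counts, so its call is not independent of the filter.

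The SULTR1.2 genes, the other route of sulphate into the root, differed by less and from a higher level under P deprivation. BnaC06g38480D was at 86.1, 64.1 and 47.5 CPM under P and 336, 284 and 361 CPM under S deprivation (log2 fold change -2.31, SE 0.32, edgeR adjusted p = 7.98e-05). BnaA07g33860D was at 25.9, 19.8 and 15.7 CPM against 112, 99.2 and 124 CPM (log2 fold change -2.45, SE 0.40, edgeR adjusted p = 0.000446). In both genes the S libraries were all above the P libraries. Under P deprivation both were lower than the control (-1.43 and -1.18). Under S deprivation BnaA07g33860D was higher (1.27), and BnaC06g38480D did not pass the test (0.89, edgeR adjusted p = 0.073). The study, which used a likelihood ratio test, listed BnaC06g38480D too as higher than the control under S deprivation.

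The genes numbered SULTR2.1 and SULTR2.2, vascular transporters, were also higher under S deprivation, the direction in which the study had listed them against the control. SULTR2.1 was low throughout: BnaA10g22050D was at 0.0770, 0.221 and 0.150 CPM under P and 5.03, 3.58 and 4.74 CPM under S deprivation (log2 fold change -4.82, SE 0.65, edgeR adjusted p = 7.15e-05). BnaC09g46440D had 1 count in the P libraries together and 85 in the S libraries, a ratio of 82.6 with a 95% exact binomial interval of 14.4 to 3300 that covers counting error only. The S libraries of both genes stood above the P libraries. SULTR2.2 was measured at higher CPM, with BnaA07g33850D at 2.77, 1.84 and 2.40 CPM against 27.0, 13.0 and 17.1 CPM (log2 fold change -3.03, SE 0.24, edgeR adjusted p = 1.36e-07). Its copy on the C subgenome, BnaC06g38470D, was at 8.16, 7.52 and 11.2 CPM against 67.3, 35.8 and 46.3 CPM (log2 fold change -2.48, SE 0.20, edgeR adjusted p = 2.27e-07). Again no P library reached the S libraries. The vacuolar SULTR4.1 gene BnaC03g05940D was at 21.8, 18.7 and 12.9 CPM against 86.8, 77.1 and 85.3 CPM (log2 fold change -2.22, SE 0.23, edgeR adjusted p = 3.46e-06).

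The other 28 genes of the group carry a sulphate transporter annotation without a SULTR number and were not assigned to families here. Of these, 11 were higher under S deprivation, 9 under P deprivation and 8 did not pass the test. Since numbers were held only by genes the study listed as higher under S deprivation, no split between families can be read from this. BnaA02g18690D was at 60.4, 38 and 29 CPM under P and 529, 438 and 550 CPM under S deprivation (log2 fold change -3.57, SE 0.28, edgeR adjusted p = 1.07e-07). BnaA03g32290D was at 0.231, 0.369 and 0.449 CPM against 32.2, 20.3 and 26.7 CPM (log2 fold change -6.20, SE 0.37, edgeR adjusted p = 7.43e-09). BnaC03g37650D was at 1.62, 1.92 and 1.2 CPM against 44.5, 37.4 and 41.9 CPM (log2 fold change -4.70, SE 0.28, edgeR adjusted p = 6.54e-09). The groups were far apart for all 3 genes, and each was higher than the control under S deprivation (2.95, 5.10 and 3.56).

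The 9 sulphate transporter genes that were higher under P deprivation had log2 fold changes from 1.40 to 3.53. BnaA05g23640D was at 13.6, 16.1 and 16.1 CPM under P and at 0.659, 1.99 and 1.46 CPM under S deprivation (log2 fold change 3.53, SE 0.43, edgeR adjusted p = 2.57e-05). BnaA03g34000D was at 32.5, 36 and 30.02 CPM against 0.959, 9.85 and 1.95 CPM, with S replicate 2 well above the other S libraries yet below every P library (log2 fold change 3.04, SE 0.64, edgeR adjusted p = 0.00438). BnaA03g07660D was at 5.16, 4.42 and 3.07 CPM against 0.300, 0.895 and 0.558 CPM (log2 fold change 2.92, SE 0.66, edgeR adjusted p = 0.00713). None of these overlapped, which was a condition for naming them. The other genes of this kind were BnaC03g39450D (2.13), BnaC01g35550D (2.09), BnaC05g37350D (1.68), BnaA01g28310D (1.62), BnaA02g04350D (1.45) and BnaC02g08870D (1.40). Just outside the threshold was BnaC03g09670D, at 3.08, 1.55 and 5.39 CPM under P and 1.2, 0.895 and 1.19 CPM under S deprivation (log2 fold change 1.58, SE 0.51, edgeR adjusted p = 0.0502).

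All 9 genes were higher than the control under P deprivation, with log2 fold changes from 1.05 to 2.37, and none passed the test against the control under S deprivation (-1.24 to 0.60). The study, which used a likelihood ratio test, listed BnaC03g39450D among these as lower than the control under S deprivation. Summed over these 9 genes, the CPM were 190, 213 and 176 in the P libraries, 24.4, 77.1 and 43.2 in the S libraries and 64.6, 67.5 and 55.8 in the control libraries. The sums over the 21 genes higher under S deprivation were 268, 212 and 160, then 1796, 1492 and 1840, and in the control 618, 328 and 498. Both sums were chosen by the direction of the difference and describe only its size. The mean of the control lay between the deprivations for 18 of the 21 genes and for 7 of the 9. In the group as a whole, 10 genes were higher and 14 lower than the control under P deprivation (15.1% and 14.3% of all genes), and 15 were higher and 1 lower under S deprivation (4.22% and 4.63% of all genes).

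**Figure D3:**
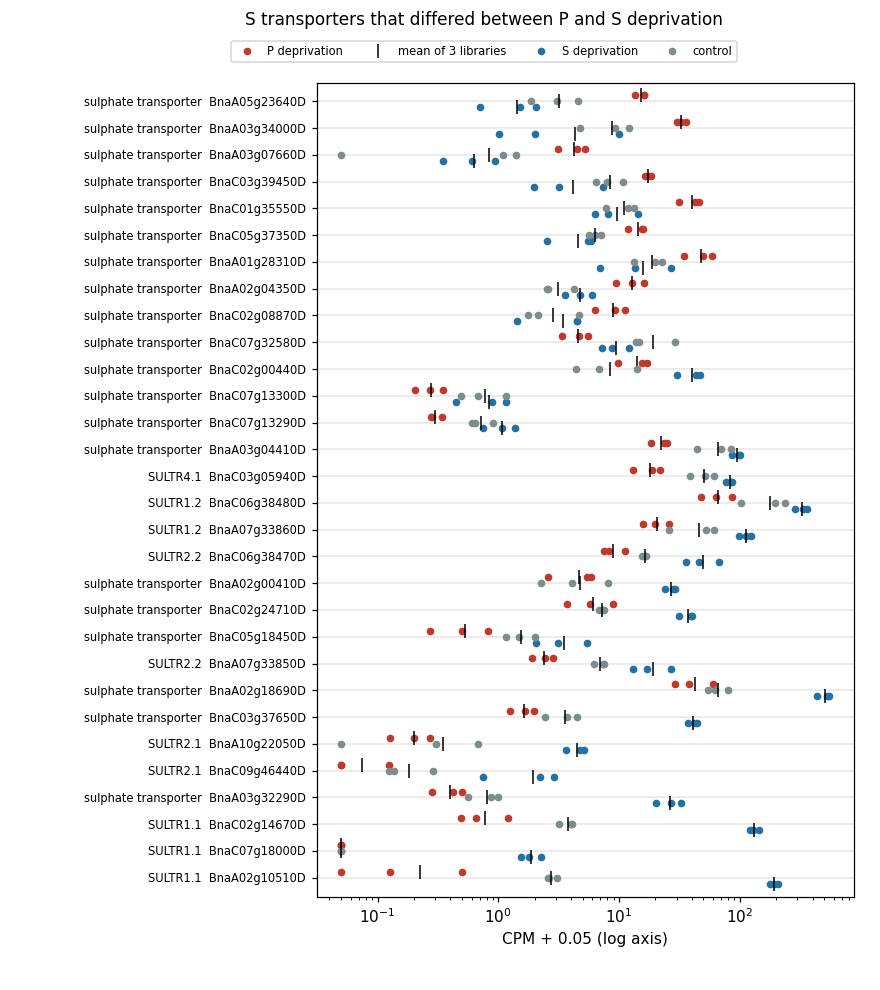
CPM with 0.05 added (x axis, log scale) of the 30 S transporter genes called between P and S deprivation, 1 row per gene with its annotation; red, blue and grey points are the 3 P, 3 S and 3 control libraries and the bars are their means. The red and blue points are furthest apart for the SULTR1.1 genes BnaA02g10510D and BnaC02g14670D near the bottom. In the upper 9 rows the order is turned around.

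The enzymes that use sulphate were compared next, with 48 genes from the study's table of S-related genes. The study chose them on these libraries, against the control, so their direction is not independent evidence. Between P and S deprivation, 14 were higher under S deprivation and 8 under P deprivation (6.13% and 5.23% of all genes), and without S replicate 1 the first count was 9. PAPS reductases, which reduce activated sulphate, were higher under S deprivation in 6 of 7 cases, and the seventh, BnaC04g19270D, was at 96.3, 45.4 and 42.5 CPM under P and 163, 70.3 and 121 CPM under S deprivation (log2 fold change -0.94, edgeR adjusted p = 0.0873). The median of the family was -1.31. BnaC01g13420D was at 59.4, 53.5 and 47.7 CPM against 260, 97.3 and 154 CPM (log2 fold change -1.67, SE 0.35, edgeR adjusted p = 0.00386). BnaA03g45080D was at 85.9, 77.6 and 61.0 CPM against 299, 166 and 227 CPM (log2 fold change -1.63, SE 0.22, edgeR adjusted p = 7.98e-05). S replicate 2 was the lowest S library for both genes and still lay above all P libraries.

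The remaining PAPS reductases called were BnaA01g11840D (-1.43), BnaA03g59800D (-1.31), BnaA09g20370D (-1.24) and BnaC07g37060D (-1.12). The call of BnaA03g59800D was lost without P replicate 2 or 3 or S replicate 1 or 3, with edgeR adjusted p from 0.0508 to 0.147. The summed CPM of the family were 488, 400 and 340 in the P libraries, 1424, 688 and 1016 in the S libraries and 654, 369 and 585 in the control libraries. The P and S libraries did not overlap, while the control overlapped with P deprivation. ATP sulfurylase, which activates sulphate, passed the test in 0 of 3 genes, with log2 fold changes from -0.58 to 0.00. Of 11 APS kinases, which divert activated sulphate to sulphation reactions, 3 were higher under S deprivation and 1 under P deprivation (6.13% and 5.23% of all genes). The latter, BnaC01g00790D, was at 9.70, 13.9 and 9.80 CPM against 3.06, 5.57 and 3.83 CPM (log2 fold change 1.45, edgeR adjusted p = 0.0352), and the call was lost without P replicate 2 or 3 or S replicate 1 or 3, with edgeR adjusted p from 0.067 to 0.143.

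The 4 glycosyl transferases, listed by the study under sulfolipid synthesis, showed the opposite order and were all higher under P deprivation. BnaA10g27550D was at 26.3, 21.4 and 21 CPM under P and at 0.180, 0.298 and 0.418 CPM under S deprivation (log2 fold change 6.24, SE 0.35, edgeR adjusted p = 4.69e-09). Its neighbour in identifier, BnaA10g27560D, was at 27.3, 26.5 and 20.3 CPM against 0.479, 0.398 and 0.279 CPM (log2 fold change 5.96, SE 0.47, edgeR adjusted p = 1.29e-07). The values of the S libraries were a few counts per library for both, far under the P libraries. BnaCnng03870D was at 60.0, 53.2 and 46.6 CPM against 2.28, 1.49 and 1.6 CPM (log2 fold change 4.86, SE 0.25, edgeR adjusted p = 1.13e-09). BnaA03g00460D, already at 28.8, 23.9 and 26.6 CPM under S deprivation, was at 138, 118 and 110 CPM under P deprivation (log2 fold change 2.21, SE 0.24, edgeR adjusted p = 5.56e-06). In all 4 the control libraries were near the S libraries, and S deprivation did not differ from the control at the threshold (-0.28 to 0.15).

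Enzymes further down the pathway differed in both directions. The S-adenosylmethionine synthetase BnaA03g34510D was at 133, 182 and 178 CPM under P and 430, 362 and 397 CPM under S deprivation (log2 fold change -1.27, SE 0.27, edgeR adjusted p = 0.0043). One of 3 cysteine synthases, BnaAnng28500D (-0.90), and the acireductone dioxygenase BnaA01g19100D (-1.12), an enzyme of methionine salvage, were also higher under S deprivation. The glutathione synthase BnaC09g03120D was higher under P deprivation (0.67). Of 12 glutathione S-transferases, enzymes that conjugate glutathione to other compounds, 2 were higher under each deprivation (5.23% of all genes under P and 6.13% under S). These were BnaC05g13360D (0.98) and BnaA06g11500D (0.86) under P, and BnaA09g14510D (-1.29) and BnaA06g20200D (-0.58) under S deprivation. BnaA09g14510D, at 0.374 to 1.16 CPM under P and 1.67 to 2.16 CPM under S deprivation, lost its call without P replicate 2 or 3 or any S replicate, with edgeR adjusted p from 0.0649 to 0.201, and also with the 6 libraries alone (0.0745) and without the filter (0.0606).

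**Figure D4:**
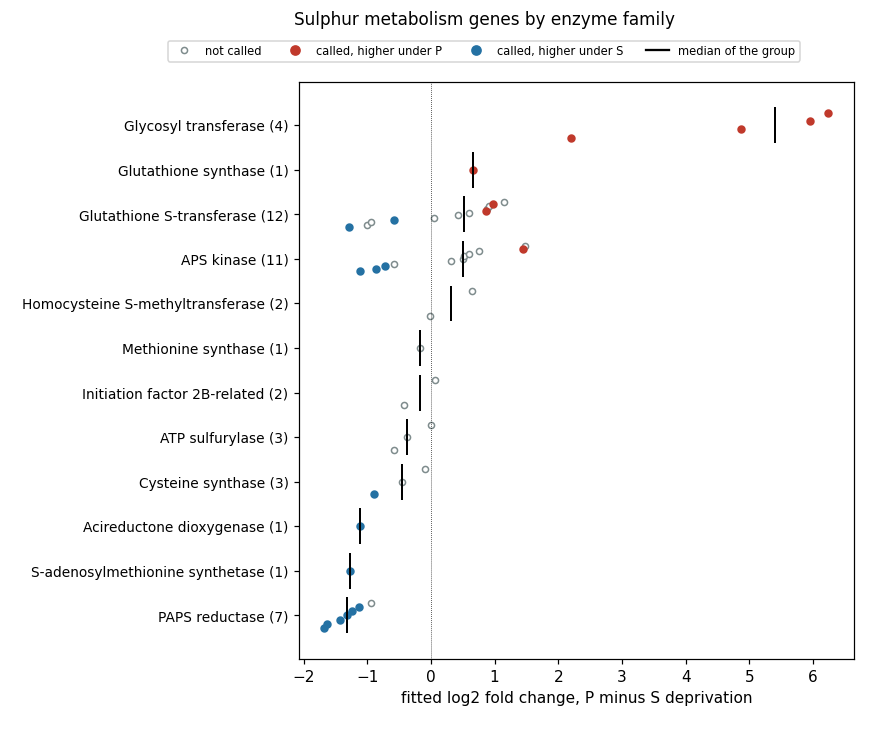
Fitted log2 fold change, P minus S deprivation (x axis), of the 48 S metabolism genes by enzyme family, with the number of genes in brackets; filled points passed the test, open points did not, and black bars are family medians. The 4 glycosyl transferases lie to the right of all other genes, and the PAPS reductases have the lowest family median, -1.31.

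The remaining 238 genes of the ion transport list were more often higher under S than under P deprivation: 77 were, against 7 higher under P deprivation (6.13% and 5.23% of all genes), with a median log2 fold change of -0.35. The 7 became 4 without P replicate 2 and 3 without S replicate 1. Against the control, 21 of the 238 were higher and 100 lower under P deprivation (15.1% and 14.3% of all genes). Under S deprivation, 7 were higher and 15 lower than the control (4.22% and 4.63% of all genes). Of the 24 N transporters, 19 were higher under S deprivation and 0 under P deprivation, with a median of -1.90. Their summed CPM were 593, 460 and 409 in the P libraries, 1596, 2301 and 2184 in the S libraries and 2232, 1353 and 1425 in the control libraries. The S libraries thus overlapped with the control, and the P libraries were below both. Against the control, 16 N transporters were lower under P deprivation and 1 under S deprivation (14.3% and 4.63% of all genes), the second being near the share of all genes.

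All 8 major facilitator proteins and all 5 Nar2 proteins, the partner subunit of high-affinity nitrate transporters, in the N group were higher under S deprivation. So were 6 of the 10 ammonium transporters, against 6.13% of all genes. BnaA08g24500D had 0, 0 and 0.150 CPM under P and 41.6, 74.9 and 66.7 CPM under S deprivation, or 2 counts against 2404, a ratio of 1170 with a 95% exact binomial interval of 323 to 9650. BnaC03g56990D was at 1.77, 1.70 and 2.47 CPM against 86.6, 149 and 153 CPM (log2 fold change -6.02, SE 0.37, edgeR adjusted p = 8.64e-09). Both genes were abundant in the control, at 152, 80.5 and 90.8 CPM and at 255, 306 and 226 CPM. The major facilitator BnaC08g43370D was at 0, 0.295 and 0 CPM against 2.88, 13.0 and 9.76 CPM (log2 fold change -6.28, SE 1.11, edgeR adjusted p = 0.00102).

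Metal transporters differed from group to group. Of 22 zinc/iron transporters, 8 were higher under S and 1 under P deprivation (6.13% and 5.23% of all genes), the second being near the share of all genes. BnaA01g35020D, a zinc/iron permease, was at 0.154, 1.18 and 0.225 CPM under P and 37.8, 25.6 and 40.5 CPM under S deprivation (log2 fold change -6.02, SE 0.54, edgeR adjusted p = 1.61e-06). The control libraries of this gene, at 37.4, 19.0 and 46.5 CPM, were in the range of S deprivation. Of 8 genes listed under Fe/Mn, 4 were higher under S deprivation (6.13% of all genes). Among them was BnaA02g17720D with 2 counts against 42, a ratio of 20.4 with a 95% exact binomial interval of 5.31 to 174. Of the 9 genes listed under Cd-Cd/Zn, 1 was higher under each deprivation, with a median of 0.04. Of the 8 Cu genes, 2 were higher under S deprivation and 0 under P deprivation. Of 7 genes listed under Zn, 1 was higher under S deprivation and 0 under P deprivation, or 14.3% called in either direction, near the 11.4% of all genes. BnaC04g51630D, listed under Zn in a different spelling, was kept apart and did not pass the test. In the Cd-Cd/Zn group, BnaA09g42150D, a natural resistance-associated macrophage protein (NRAMP) as annotated and a metal transporter family, was at 0.154, 0.221 and 0.225 CPM against 2.52, 1.19 and 2.86 CPM (log2 fold change -3.42, SE 0.77, edgeR adjusted p = 0.00709). The cation efflux proteins BnaCnng31720D (-4.26) and BnaC02g06740D (-4.42) and the copper transporter BnaC01g24930D (-3.77) were likewise lower under P deprivation than under S deprivation.

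Transporters of K, Ca and Na also included genes higher under S deprivation. Of 32 K transporters, 8 were higher under S and 1 under P deprivation (6.13% and 5.23% of all genes), and BnaA07g16500D was at 8.01, 12.8 and 15.0 CPM under P and 134, 74.5 and 84.8 CPM under S deprivation (log2 fold change -3.04, SE 0.34, edgeR adjusted p = 9.39e-06), with the control at 267, 180 and 133 CPM. Of 56 Ca transporters, 14 were higher under S and 2 under P deprivation (6.13% and 5.23% of all genes). In the K and Ca groups the count higher under P deprivation was below the share of all genes. The cation-transporting ATPase BnaAnng10900D, of the Ca group, was at 0.539, 0.811 and 0.449 CPM against 14.5, 11.3 and 19.7 CPM (log2 fold change -4.64, SE 0.42, edgeR adjusted p = 7.05e-07). BnaA02g22130D, a cation transporter listed under Na symport, was at 0.231, 0 and 0.150 CPM against 33.1, 9.35 and 22.7 CPM (log2 fold change -7.35, SE 0.88, edgeR adjusted p = 1.89e-05). The chloride channel BnaA06g32380D was also lower under P deprivation (-1.87). For each of these genes the P libraries were all below the S libraries.

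Of 16 Mg transporters, 2 were higher under P deprivation and 0 under S deprivation, or 12.5% called in either direction, near the 11.4% of all genes. BnaA08g16930D, annotated as a NIPA magnesium transporter, was at 11.2, 10.8 and 9.06 CPM under P and 7.67, 7.16 and 7.11 CPM under S deprivation (log2 fold change 0.50, SE 0.16, edgeR adjusted p = 0.0457). The call was lost without P replicate 1 or 2 or any S replicate, with edgeR adjusted p from 0.0851 to 0.137, and also with the 6 libraries alone, with the 18 without the control, without the filter and with the CPM filter (0.0600 to 0.0868). BnaC01g33220D, listed under Mg/Zn, was at 5.77, 5.31 and 7.78 CPM against 8.75, 11.6 and 9.20 CPM (log2 fold change -0.64, edgeR adjusted p = 0.0408), and its call was lost without P replicate 1 or 2 or any S replicate, with edgeR adjusted p from 0.0580 to 0.165, and also with the 6 libraries alone (0.0678) and without the filter (0.0654).

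**Figure D5:**
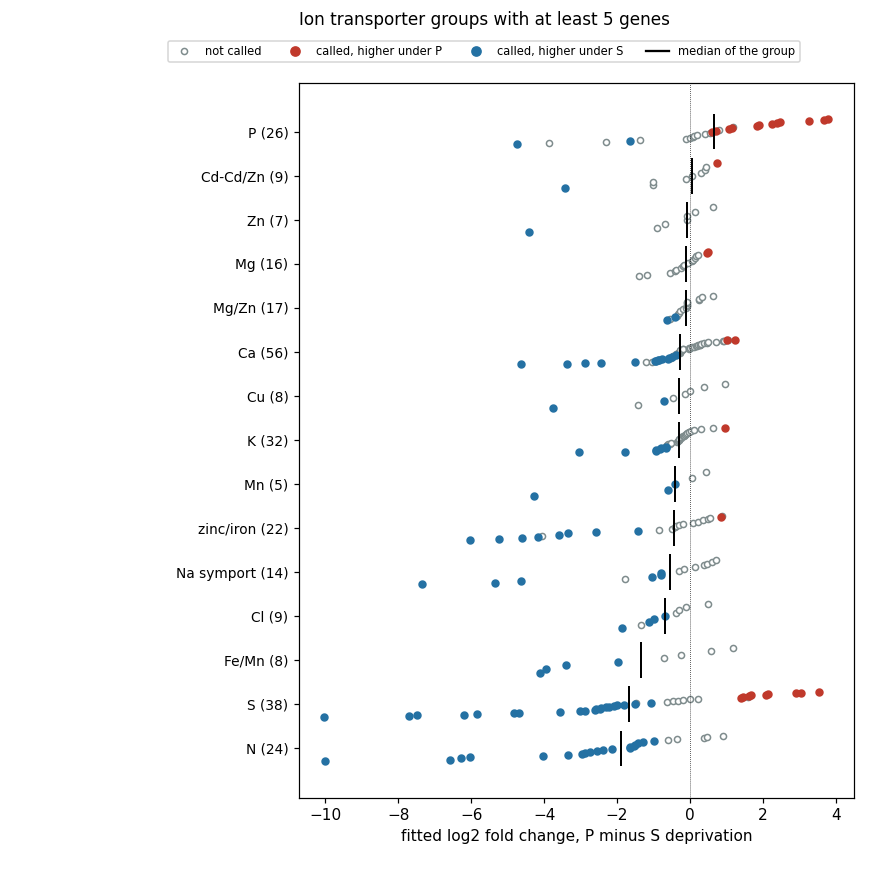
Fitted log2 fold change, P minus S deprivation (x axis), of the genes of each ion transporter group with at least 5 genes, with the number of genes in brackets; filled points passed the test, open points did not, and black bars are group medians. The P group has the highest median, 0.67, the N and S groups have the lowest, -1.90 and -1.66, and the S group has filled points far out on both sides.

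Outside the transport and S metabolism lists, the genes with the largest differences were taken from those with an annotation at hand. Only a part of the study's annotated gene table, with 1144 genes, was held here. An annotation was therefore at hand for 545 of the 5466 genes called without overlap and at sufficient level, genes of the lists included. BnaAnng20110D, a general substrate transporter of the major facilitator superfamily, was at 59.5, 61.9 and 45.1 CPM under P and 0.419, 0.298 and 0.349 CPM under S deprivation (log2 fold change 7.22, SE 0.58, edgeR adjusted p = 1.90e-07). The thaumatin genes BnaC08g18720D and BnaA01g12890D, of a family of defence-related proteins, had log2 fold changes of 4.16 and 3.33. BnaC08g00150D, with a domain of unknown function, and BnaC04g03210D, of the TPMT family of methyltransferases, were also higher under P deprivation (4.70 and 3.57). BnaC08g18720D was at 64.1, 39.1 and 40.9 CPM under P, 1.08, 2.69 and 4.39 CPM under S deprivation and 0.0790, 0.600 and 0.370 CPM in the control, and was higher than the control under both deprivations (7.09 and 2.93).

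Higher under S deprivation was BnaA10g26070D, of the histidine phosphatase superfamily, with 0.0770, 0 and 0.225 CPM under P and 127, 21.6 and 67.9 CPM under S deprivation (log2 fold change -9.37, SE 0.85, edgeR adjusted p = 7.63e-07). The S libraries of this gene differed several-fold among themselves, and its control was between, at 12.3, 5.32 and 8.45 CPM. BnaA07g20100D, of the NRAMP family, was at 0, 0.295 and 0.150 CPM against 28.5, 26.6 and 34.6 CPM (log2 fold change -7.56, SE 0.56, edgeR adjusted p = 6.93e-08), with a control of 49.6, 18.6 and 52.1 CPM. BnaA02g23440D, a RING-type zinc finger protein, was at 0.539, 0.221 and 0.0748 CPM against 23.9, 16.1 and 22.7 CPM (log2 fold change -6.20, SE 0.52, edgeR adjusted p = 2.94e-07). The last 2 genes were lower than the control under P deprivation and did not pass the test against it under S deprivation, and BnaA10g26070D differed from the control in both, downward under P and upward under S deprivation.

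Among all genes called without overlap and at sufficient level, the 2 largest differences in each direction were in genes without an annotation in the tables used. BnaC05g27910D was at 43.3, 37.7 and 32.9 CPM and BnaC07g13260D at 42.4, 37.2 and 27.7 CPM under P deprivation, and both had 0 counts in every S library. They were at least 166-fold and at least 156-fold higher under P deprivation, with S deprivation set at 3 counts per library. BnaC09g03730D (118, 45.2 and 68.0 CPM) and BnaC09g02580D (102, 16.8 and 44.6 CPM) showed the reverse, with 0 counts in every P library, and were at least 341-fold and at least 241-fold higher under S deprivation. The control libraries were at or near 0 for BnaC05g27910D, BnaC07g13260D and BnaC09g02580D, and at 0.553, 0.257 and 1.11 CPM for BnaC09g03730D. Each gene was therefore detected well in the libraries of only 1 of the 2 deprivations, among the 9 libraries of P, S and control.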

How the data were processed

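Stranded mRNA libraries were sequenced as paired-end reads. The authors aligned them with STAR 2.5.2a and deposited raw counts: each value is the number of read pairs on a gene, with no normalization and with pairs of several mapping places left out. Near-identical A and C copies are therefore counted only by the reads that tell them apart. Reverse-strand counts of the 21 libraries harvested after 10 days were used, with 12 libraries of 22 days not used here. Counts were filtered (filterByExpr by condition), TMM-normalized and tested with edgeR 4.0.16 in R 4.3.3 (glmQLFit, glmQLFTest), with 1 coefficient for each of 7 conditions and 14 residual degrees of freedom. The contrast was P minus S deprivation. Adjusted p of at most 0.05 (Benjamini-Hochberg) was the threshold. SE, the standard error, was obtained as the size of the log2 fold change over the square root of F. CPM are TMM-normalized.

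The conditions have 3 libraries each, and the total counts given per condition and counting error limit the precision. The study's methods call the 3 replicates independent. They do not say how the replicates of a condition were spread over the growth containers, so an effect of the container could not be tested. The p-values measure the spread between these libraries. A group with 0 counts in every library was set at 3 counts per library to give a lower bound, and for 1 to 3 counts in a group an exact binomial interval covers counting error only. For principal components, genes were scaled after log2 CPM had been taken with prior count 2.

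The comparison, the gene lists and the rules below were chosen with earlier results of these data known. In the P group, the S group and the S metabolism table, up to 12 genes each were named by absolute log2 fold change. These had to be called, changed at least 2-fold and not overlapping. Among all genes called, not overlapping and with a mean log2 CPM from 1 upwards, the 10 largest differences in each direction with an annotation were named. So were the 2 largest in each direction, annotated or not. In each other ion group of at least 5 genes, the largest called difference was named. The other members named complete a family or lie near the threshold, and were chosen after their values were seen. No gene of the RefSeq table given matched the identifiers, so no sequence or position is given. Alternatives were the 6 libraries alone, 18 libraries without the control, RLE and upper-quartile normalization, the likelihood ratio test, DESeq2 1.42.0, no filter, a CPM filter, counts without regard to strand, a replicate block, an adjusted p of at most 0.01, a fold threshold and leaving out each library. Figures were drawn with matplotlib.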

Additional observations from a re-analysis of the deposited data

How the results depend on the processing

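The number of genes called ranged from 5176 with the 6 libraries alone (4402 of them among the 6433) to 7583 with the likelihood ratio test, with 7478 by DESeq2, 5782 without the filter, 6439 and 6411 with the other normalizations and 6934 without the control. The share higher under P deprivation was 46% and ran from 40.5 to 50.3%. With an adjusted p of at most 0.01, 2931 genes were called (1229 higher under P, 1702 under S deprivation), of the P transporters 9 (7 higher under P), and of the other ion groups 4 were higher under P. When a 2-fold difference was required too, 3364 were called (1411 and 1953), of the other ion groups 54 (2 higher under P), and of the S metabolism genes 5 were higher under P. Leaving out 1 library gave 3652 to 6515 genes called (1506 to 3106 higher under P, 2016 to 3409 under S deprivation), 9 to 13 P transporters (7 to 11 higher under P), 3 to 6 genes of the other ion groups higher under P, 9 to 16 S metabolism genes higher under S deprivation, and 40.4 to 46.3% of the variance on the first principal component. With genes not scaled, this component held 55.9%. None of the 63 named genes changed direction, and 55 passed the threshold under every alternative that tested them. The cause of these shifts was not tested, except that a stricter threshold leaves fewer calls by construction.

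Replicate numbers are shared by the labels of both deprivations. The deviations of same-numbered libraries from their group means correlated at 0.312, 0.325 and -0.02 for numbers 1, 2 and 3. Between P replicate 2 and S replicate 1 the value was -0.32, and between P replicate 1 and S replicate 2 it was -0.33. The remaining pairs, all with a replicate 3, ran from -0.04 to 0.05. Whether same-numbered libraries share more than the number was not tested. With a replicate block, 6116 genes were called. Genes with a few counts per library are limited by depth, and their fold changes are known only within wide intervals.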
